A study of Homo sapiens with 6 samples.

Results

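The mTOR kinase works in a pair of multi-protein complexes, and 9 genes encoding their subunits are described here: MTOR, MLST8 and DEPTOR, whose products sit in both complexes, RPTOR and AKT1S1 of mTOR complex 1 (mTORC1), and RICTOR, MAPKAP1, PRR5 and PRR5L of mTOR complex 2 (mTORC2). They were taken by gene symbol, as a list, from a table of 13117 genes, and all 9 were found. The table holds poly(A) RNA-seq values of SNU449, an established human hepatocellular carcinoma line, carrying pInducer20-FOXO1AAA, a doxycycline-inducible construct. One group received no drug (Cont, n = 3) and the other 2 µM doxycycline hydrochloride for 48 h (Dox, n = 3). In the FOXO1AAA protein, alanines stand where AKT would phosphorylate the forkhead transcription factor FOXO1, so that AKT cannot hold it outside the nucleus. The labels give the genotype of every sample as WT and do not say whether the line is 1 clone. All 6 samples carry the construct, and no library had the drug without it, so effects of doxycycline and of the induced protein cannot be told apart. Nothing in the labels says that the 3 samples of a group were separate cultures. The p-values therefore set the difference between groups against the scatter of these samples only, and that scatter may be technical.

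As background, mTORC1 couples growth factor and amino acid supply to protein and lipid synthesis and holds back autophagy, while mTORC2 phosphorylates AKT, SGK and PKC kinases. AKT in turn phosphorylates FOXO factors, which places FOXO1 downstream of mTORC2. The title of the series names mTORC2, AKT and FOXO1 in liver cancer, and the comparison asks how the transcripts of the complexes that act upstream of FOXO1 differ once an AKT-resistant FOXO1 has been induced.

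The deposited values are log2 FPKM (fragments per kilobase of a transcript for each M of a library total, where M stands for mega). FPKM below is 2 to the power of these values. Whole read numbers were recovered from them for all 13117 genes, and the library totals the authors had used were 28.4 to 41.6 M in Cont and 31.3 to 47.1 M in Dox. Reads of the listed genes were 1.01 to 1.04 times that total in Cont and 0.973 to 0.977 times in Dox, so it need not be the mapped reads. FOXO1 itself was at 0.741, 0.776 and 0.889 FPKM in Cont and 2.87, 3.50 and 2.01 in Dox, and reads from the construct and from the endogenous gene cannot be told apart. Among liver markers, 5 of 12 hepatocyte genes were listed, and 3 of them reached 1 FPKM in at least 3 libraries. The summed level of the 5 was 175 to 237 FPKM in Cont and 19.9 to 22.4 in Dox. APOA1, APOA2, APOB, TTR, TF, SERPINA1 and HNF4A were not among the rows used here. AFP stood at 7.34 to 17.1 FPKM in Cont and 4.65 to 8.62 in Dox. The 2 endothelial markers listed did not reach 1 FPKM in 3 libraries, and of 5 immune markers only CD14 was listed, at no more than 2.38 FPKM. Mitochondrially encoded genes took 1.84% to 2.83% of the listed reads in Cont and 7.93% to 8.93% in Dox.

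Transcripts of mTORC2 subunits changed in opposite directions between Cont and Dox, and most of the others were lower in Dox. RICTOR was 3.84-fold higher in Dox, PRR5L was 9.60-fold lower, and 5 further subunits (PRR5, MLST8, MTOR, AKT1S1 and MAPKAP1) fell by smaller amounts as deposited. Other scalings of the libraries left 3 to 5 subunits lower, and the falls of MTOR, AKT1S1 and MAPKAP1 did not pass in all of them. RPTOR did not pass the test and DEPTOR was too low to be tested. In counts, 1 of the 8 tested subunits rose and 6 fell (limma, adjusted p under 0.05), where 80.1% of all 11526 tested genes passed, 37.4% in the upward and 42.8% in the downward direction. The median change of the 8 was -0.38 in log2, against -0.07 over all tested genes. The 3 Cont and the 3 Dox values did not overlap for any of the 8, which also held for 82.1% of all tested genes. Most genes in this comparison changed, so the share of subunits called says little by itself, and the sizes of the single changes carry the description. In bulk RNA, fewer cells with a transcript and less of it per cell cannot be told apart.

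**Figure D1:**
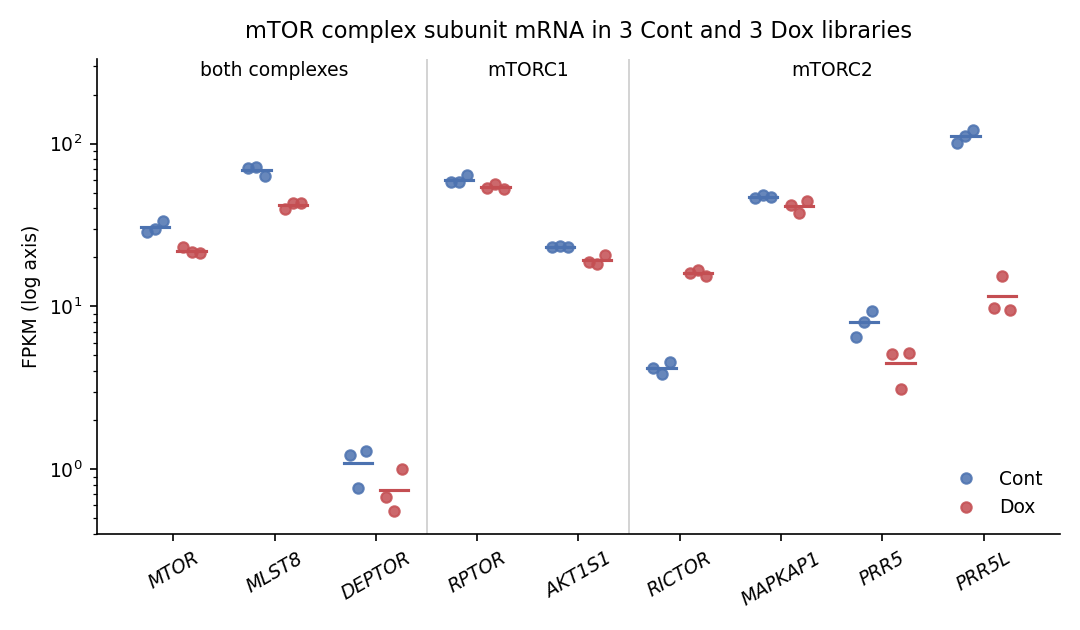
Level of each of the 9 subunit transcripts (y axis, FPKM, log axis) in the 3 Cont and 3 Dox libraries, grouped by complex; points are libraries and bars are group means. RICTOR is the single gene with all 3 Dox points above its Cont points, PRR5L has the widest gap downward, and the DEPTOR groups overlap.

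Among the shared subunits, MTOR encodes the kinase itself. It lies on the minus strand of chromosome 1 (chr1:11106535-11262507, GRCh38, GENCODE 29) and was read at 28.8, 29.7 and 33.4 FPKM in Cont and 23.0, 21.5 and 21.3 in Dox, from 2682 to 4952 reads a library. Every Dox library was below every Cont library. The mean went from 30.6 ± 2.46 to 22.0 ± 0.921 FPKM (SD, n = 3), 28.3% lower, a log2 change of -0.48 (SE 0.08, limma adjusted p = 0.000446). MLST8, a WD-repeat protein that binds the kinase domain in both complexes (chr16:2204248-2209416, plus strand), was at 70.5, 72.2 and 63.3 FPKM in Cont and 39.9, 42.9 and 43.3 in Dox. The 3 Dox values lay close together and well under the lowest Cont value. Its mean fell from 68.7 ± 4.69 to 42.0 ± 1.89 FPKM, or by 38.8%, with a log2 change of -0.71 (SE 0.07, limma adjusted p = 1.67e-05).

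DEPTOR, a chromosome 8 gene whose product inhibits mTOR in both complexes, was the lowest of the 9. Its values were 1.22, 0.763 and 1.29 FPKM in Cont and 0.678, 0.553 and 0.999 in Dox, from only 24 to 59 reads a library. The groups overlapped, since the third Dox library was above the second Cont library. DEPTOR reached 1 FPKM in fewer than 3 libraries and was left out of the test; with no filter its log2 change was -0.56 (limma adjusted p = 0.126). A difference in DEPTOR was not detected from these few reads.

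RPTOR encodes raptor, the scaffold that brings substrates to mTORC1 (chr17:80544819-80966371, plus strand). It stood at 58.3, 57.7 and 64.0 FPKM in Cont and 53.4, 56.1 and 52.6 in Dox. The highest Dox value was just under the lowest Cont value. The log2 change was -0.15 with a 95% interval from -0.30 to 0.01 (SE 0.07, limma adjusted p = 0.0687), so RPTOR did not pass, and a drop larger than 0.30 lies outside that interval. AKT1S1 encodes PRAS40, an mTORC1 inhibitor and AKT substrate (chr19:49869033-49878459, minus strand). Its Cont values were nearly equal, at 23.3, 23.3 and 23.2 FPKM, and its Dox values were 18.6, 18.3 and 20.6. All Dox values were lower, and the spread in Dox (SD 1.26) exceeded that in Cont (SD 0.0805). The fall was 17.6%, a log2 change of -0.28 (SE 0.08, limma adjusted p = 0.00696), but the call ended in 4 of 6 other scalings, and in TPM (FPKM rescaled to an equal sum per library) without mitochondrially encoded genes the change was -0.0011 (limma adjusted p = 0.991).

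RICTOR, the scaffold that defines mTORC2, was the only member that rose. The gene lies on the minus strand of chromosome 5 (chr5:38937919-39074408), and its values were 4.18, 3.83 and 4.54 FPKM in Cont and 16.0, 16.7 and 15.4 in Dox. Reads numbered 1130, 1514 and 1461 in the Cont libraries and 7200, 5327 and 4604 in the Dox libraries. Every Dox library was more than 3 times as high as any Cont library, and both groups were tight. Group means of 4.18 ± 0.354 and 16.0 ± 0.642 FPKM (SD, n = 3) gave a log2 change of 1.94 with a 95% interval from 1.72 to 2.17 (SE 0.10, limma adjusted p = 1.51e-07).

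MAPKAP1 encodes SIN1, the subunit that presents substrates to mTORC2 (chr9:125437393-125707234, minus strand). It was at 46.6, 48.2 and 46.9 FPKM in Cont and 42.1, 37.4 and 44.1 in Dox. The second Dox library was the lowest, and the third came within 3 FPKM of Cont. The mean difference of 12.9% (log2 change -0.20, SE 0.08, limma adjusted p = 0.0347) passed the test narrowly, and the call ended when any library other than Dox replicate 3 was left out. These limma adjusted p-values ran from 0.0507 (without Cont replicate 3) over 0.0588 (without Dox replicate 1), 0.0709 (without Cont replicate 1) and 0.0996 (without Cont replicate 2) to 0.156 (without Dox replicate 2, log2 change -0.13).

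PRR5 and PRR5L encode Protor-1 and Protor-2, related proteins that bind RICTOR and are not needed for the kinase activity of the complex itself. PRR5 (chr22:44668547-44737681, plus strand) was at 6.44, 8.07 and 9.40 FPKM in Cont and 5.10, 3.10 and 5.21 in Dox, from 92 to 301 reads. The second Dox library was the lowest, and no Dox library reached the lowest Cont value. Its mean fell from 7.97 ± 1.48 to 4.47 ± 1.19 FPKM, or by 43.9%, with a log2 change of -0.86 and a 95% interval from -1.35 to -0.36 (SE 0.22, limma adjusted p = 0.00521). PRR5 shares 933 of its 5247 exon bases with the same-strand read-through gene PRR5-ARHGAP8, so reads of the 2 could be exchanged.

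PRR5L (chr11:36296288-36465204, plus strand) changed most. Its Cont values were 100.1, 112 and 121 FPKM and its Dox values 9.72, 15.4 and 9.49. Reads went from 1238, 2020 and 1777 in Cont to 197, 223 and 128 in Dox. Even the second Dox library, the highest of its group, was far below every Cont library. The group means were 111 ± 10.3 and 11.5 ± 3.35 FPKM (SD, n = 3), and the log2 change was -3.30 with a 95% interval from -3.69 to -2.91 (SE 0.17, limma adjusted p = 1.67e-07). The 95% intervals of PRR5 and PRR5L do not overlap, though the difference between the 2 paralogs was not tested.

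Since the induced protein is a forkhead factor, the bases upstream of the start sites of the 2 genes that changed most, RICTOR and PRR5L, are shown here as RefSeq gives them (GRCh38.p14, 250 bases before the annotated start, 5′ to 3′ on the gene's strand). Matches to the inner forkhead letters AAACA, or to TGTTT on the other strand, are in capitals. RICTOR has 1 annotated start in that table, and the 2 of the 3 PRR5L starts with the most matches are shown. Of the RICTOR window (chr5:39074400-39074649, minus strand) 9 bases are exonic in GENCODE 29. The first PRR5L window (chr11:36296038-36296287) lies before the gene and the second (chr11:36375735-36375984) in an intron, both on the plus strand.
RICTOR: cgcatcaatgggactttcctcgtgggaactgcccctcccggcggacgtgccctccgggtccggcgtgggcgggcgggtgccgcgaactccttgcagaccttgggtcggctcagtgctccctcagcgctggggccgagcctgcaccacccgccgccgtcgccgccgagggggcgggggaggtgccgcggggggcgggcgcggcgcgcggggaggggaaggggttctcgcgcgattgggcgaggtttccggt
PRR5L, first start: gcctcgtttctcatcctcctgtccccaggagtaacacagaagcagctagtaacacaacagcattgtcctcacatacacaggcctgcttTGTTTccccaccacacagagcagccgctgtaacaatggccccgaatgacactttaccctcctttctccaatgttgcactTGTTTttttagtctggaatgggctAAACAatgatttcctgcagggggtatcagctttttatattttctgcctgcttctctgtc
PRR5L, second start: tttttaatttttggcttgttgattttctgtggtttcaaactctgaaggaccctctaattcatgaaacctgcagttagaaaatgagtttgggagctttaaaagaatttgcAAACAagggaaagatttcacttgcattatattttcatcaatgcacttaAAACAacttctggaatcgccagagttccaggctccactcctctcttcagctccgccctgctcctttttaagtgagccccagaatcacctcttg
The RICTOR window held no match and was 76% G or C, while the first and second PRR5L windows held 3 and 2 matches and were 47.6% and 40% G or C. The third PRR5L window (chr11:36400747-36400996, plus strand, intronic) held 1.

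Windows were on hand for 6 of the 9 members, 10 windows in all, and MLST8, AKT1S1 and DEPTOR had no entry. The longer forkhead motif GTAAACA, searched on both strands and containing AAACA, was in none of the 10, and 2.98% of all 35116 windows of the same length held it. The 5 letters AAACA were found in windows of MTOR (2 matches), RPTOR (1 match) and PRR5L, and were absent from those of RICTOR, MAPKAP1 and PRR5. They occurred in 40.4% of all windows and, counted by gene, in a window of 45.5% of 27305 genes. The median G or C content of all windows was 58%. A match in these letters is a description of the sequence and not of binding.

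**Figure D2:**
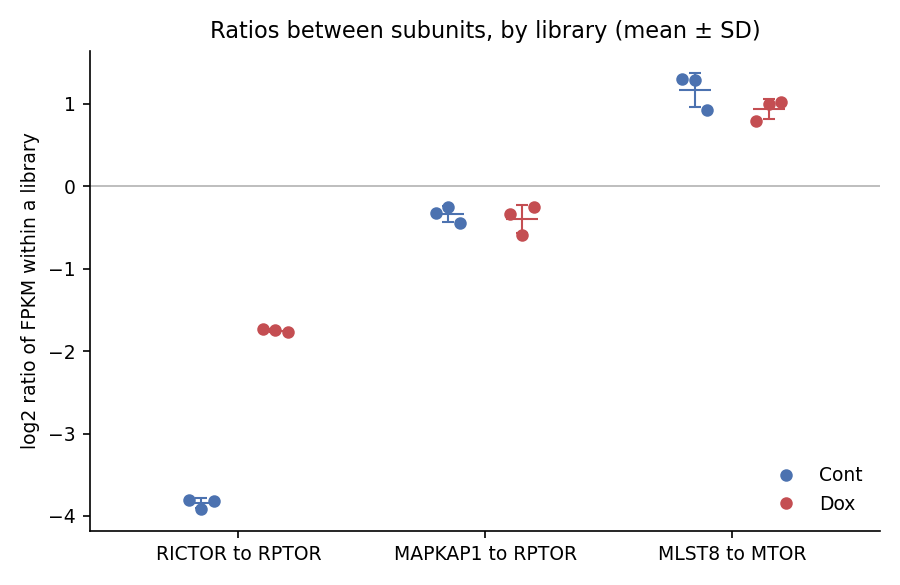
Log2 ratio of the FPKM of 2 subunits within each library (y axis), for RICTOR to RPTOR, MAPKAP1 to RPTOR and MLST8 to MTOR; points are libraries and bars are means ± SD (n = 3). The RICTOR to RPTOR ratio lies between -3.91 and -3.80 in Cont and between -1.77 and -1.74 in Dox, and the other ratios overlap between groups.

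Ratios within a library do not change when the library is multiplied by a single factor, and 3 were compared. RICTOR, which marks mTORC2, stood to RPTOR, which marks mTORC1, as 0.0717, 0.0664 and 0.0709 to 1 in Cont and as 0.300, 0.298 and 0.293 to 1 in Dox. The ratio was tight within each group and 4.27-fold higher in Dox. Its log2 value rose by 2.09 (two-sided exact permutation test p = 0.1, the smallest that 20 arrangements allow; 0.3 adjusted over the 3 ratios). With 3 libraries against 3 this test cannot reach 0.05. The other mTORC2 core subunit, MAPKAP1, did not follow: its log2 ratio to RPTOR was -0.34 ± 0.0960 in Cont and -0.40 ± 0.171 in Dox (SD, n = 3; exact permutation p = 0.7). The level of a ratio, unlike its change, rests on the gene lengths: per kilobase of the longest coding transcript MAPKAP1 was above RPTOR, at 45.2 against 23.0 in Cont and 39.4 against 20.7 in Dox. The 2 shared subunits MLST8 and MTOR had a log2 ratio of 1.29, 1.28 and 0.92 in Cont and 0.79, 0.99 and 1.02 in Dox, which overlap (mean difference -0.23, exact permutation p = 0.3).

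**Figure D3:**
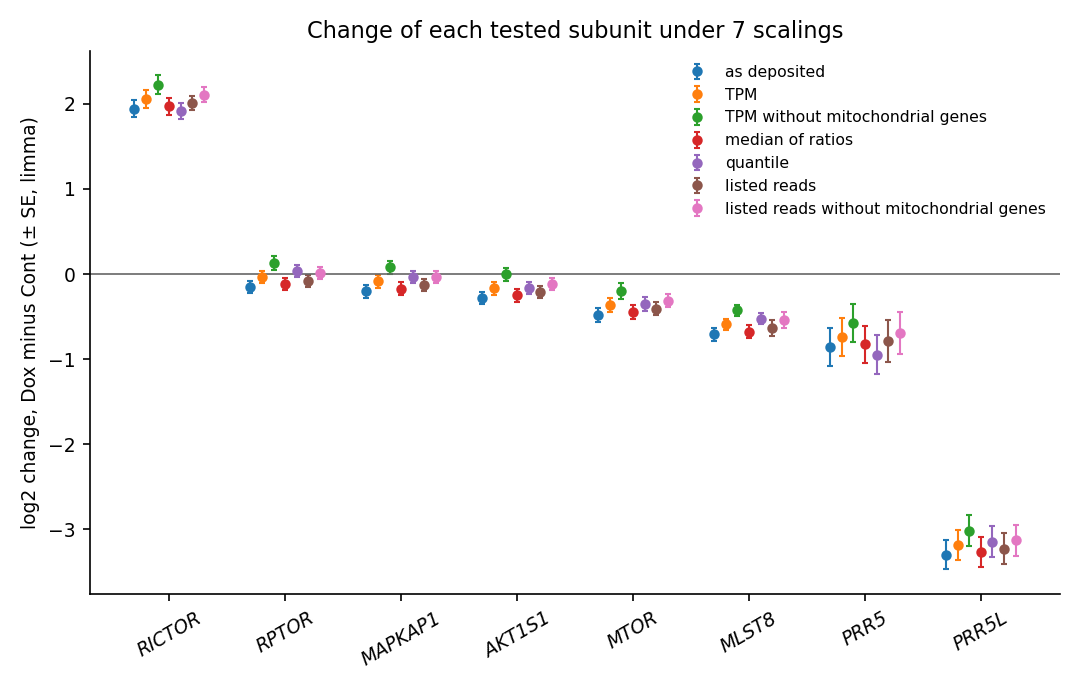
Log2 change of the 8 tested subunits, Dox minus Cont (y axis; bars are the SE from limma), under the deposited scaling and 6 other ways of scaling the libraries (colours). RICTOR, PRR5L, PRR5 and MLST8 stay on one side of 0 with a passing test throughout, and RPTOR and MAPKAP1 lie on either side of 0.

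The calls of the smaller changes depended on how libraries were scaled. Across 7 scalings RICTOR ran from 1.92 to 2.22 in log2, PRR5L from -3.30 to -3.02, PRR5 from -0.95 to -0.58 and MLST8 from -0.71 to -0.43, and these 4 genes passed in all 7 (limma, adjusted p under 0.05). MTOR ran from -0.48 to -0.20 and passed in 6, failing in TPM computed without mitochondrially encoded genes (limma adjusted p = 0.0709). AKT1S1 ran from -0.28 to -0.0011 and passed in 3 of 7. MAPKAP1 ran from -0.20 to 0.08 and passed only as deposited, and RPTOR ran from -0.15 to 0.13 and never passed. TPM without mitochondrially encoded genes also moved the median of all tested genes from -0.07 to 0.21 and the share of rises among all calls from 46.6% to 58.9%, and it left 3 of the 8 subunits lower in place of 6. Relative to the median gene of each scaling, RICTOR was 1.96 to 2.02 higher, PRR5L was at -3.22 to -3.10, PRR5 at -0.90 to -0.78, MLST8 at -0.63 to -0.48, MTOR at -0.40 to -0.31 and AKT1S1 at -0.21 to -0.13. On that measure MAPKAP1 (-0.13 to 0.01) and RPTOR (-0.08 to 0.08) were near the median gene. Every scaling but quantile normalization multiplies a library by a single factor. On this measure those scalings agree by arithmetic, apart from a slight shift of the median where mitochondrially encoded genes are left out. Only quantile normalization could differ, and it gave 1.96 for RICTOR and -3.10 for PRR5L.

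Levels of different subunits can be set side by side only per transcript length, and the lengths in the deposited table were not uniform. The length the authors divided by was recovered for each gene along with its reads. For PRR5L it was 436 bases, the length of the non-coding transcript PRR5L-217, where the longest coding transcript has 3930 bases, 9.01 times as many. For MLST8 it was 512 bases against 1870, for RPTOR 2461 against 6408, for PRR5 905 against 2279, for MTOR 4017 against 8677 and for DEPTOR 1397 against 2569. AKT1S1 (3640 bases), RICTOR (9533 against 9543) and MAPKAP1 (3252 against 3395) were at or near their longest coding transcript. The MLST8 length equalled a non-coding transcript too, and the RPTOR length one annotated for nonsense-mediated decay. The length cancels in a comparison of Dox with Cont, so the changes above do not rest on it. The order of the subunits does rest on it. The changes describe a gene only if its reads were counted over the whole gene, and the scale per longest coding transcript below needs that as well. The counter is not known, and assignment of reads to single transcripts was not tested.

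On the deposited scale PRR5L led in Cont at 111 FPKM, ahead of MLST8 and RPTOR (whose ranges overlapped), MAPKAP1, MTOR, AKT1S1, PRR5, RICTOR and DEPTOR in that order. Per kilobase of the longest coding transcript and per M reads, the order in Cont was MAPKAP1 at 45.2, AKT1S1 and RPTOR at 23.3 and 23.0 with overlapping ranges, MLST8 at 18.8, MTOR and PRR5L at 14.2 and 12.3 with overlapping ranges, RICTOR at 4.17, PRR5 at 3.14 and DEPTOR at 0.572. On this scale PRR5L ranked beside MTOR, and the transcript of SIN1 ranked first. In Dox the same scale gave MAPKAP1 at 39.4, RPTOR and AKT1S1 at 20.7 and 19.2 (overlapping), RICTOR at 16.0, MLST8 at 11.5, MTOR at 10.2, PRR5 and PRR5L at 1.75 and 1.27 (overlapping) and DEPTOR at 0.382. On this scale RICTOR had moved past MLST8 and MTOR, with no overlap of the libraries in Dox, and PRR5L from beside MTOR to beside PRR5. On the deposited scale the Dox order was RPTOR, MLST8 and MAPKAP1 (overlapping), MTOR, AKT1S1, RICTOR, PRR5L, PRR5 and DEPTOR, so that RICTOR at 16.0 FPKM was still under MLST8 at 42.0 and MTOR at 22.0, with no overlap.

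**Figure D4:**
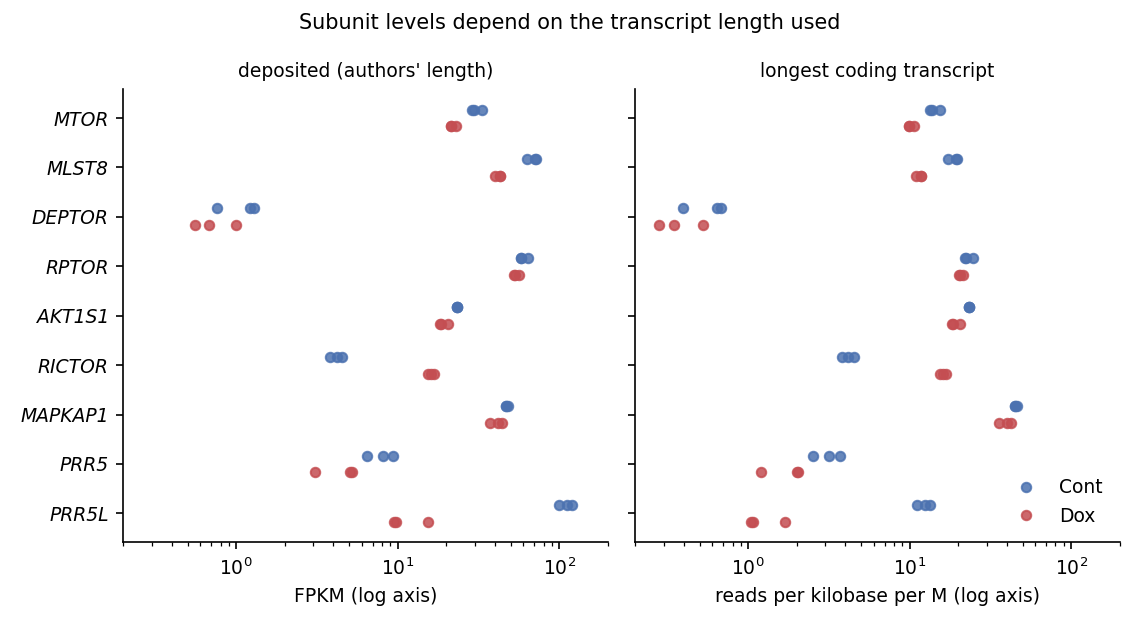
Level of each subunit (x axes, log scale) in the 3 Cont and 3 Dox libraries as deposited, in FPKM (left), and in reads per kilobase of the longest coding GENCODE 29 transcript and per M reads (right); points are libraries. PRR5L leads in Cont on the left at 111 FPKM and falls to 12.3 on the right, and the gap between its groups has the same width in both panels.

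Reads from overlapping genes bear on some members, since no source used here gives the strand setting of the counting. RICTOR shares 229 of 13550 exon bases with OSMR on the opposite strand, and OSMR went from 57.9 ± 7.72 to 49.5 ± 7.03 FPKM, opposite in direction to RICTOR and not past the test (limma adjusted p = 0.113). AKT1S1 shares 392 of 5737 exon bases with TBC1D17, which rose from 13.3 ± 1.44 to 24.5 ± 1.17 FPKM (limma adjusted p = 1.87e-05), while AKT1S1 fell. MLST8 shares 164 of 4323 with BRICD5, whose mean was 1.61 FPKM in Dox, and MTOR shares 220 of 12119 with MTOR-AS1, not used here.

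Genes whose pattern over the 6 libraries was most like that of the 2 members with an absolute log2 change of at least 1 were found by Pearson's r on the log2 values. For RICTOR these were BCL2L11, which encodes the pro-apoptotic protein BIM (r = 0.9999), and RHOBTB3 (r = 0.9998). For PRR5L they were BMP1, a procollagen-processing protease (r = 0.9997), and CD109, a cell-surface protein (r = 0.9991). These values mostly show a large gap between groups over 6 libraries: 1125 of 11518 genes reached 0.99 with RICTOR and 255 with PRR5L. BCL2L11 rose from 25.5 ± 3.15 to 198 ± 7.75 FPKM, and BMP1 fell from 12.8 ± 0.260 to 7.77 ± 0.553, a far smaller change than that of PRR5L.

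Around the subunits, 7 lists of other pathway genes (95 genes, 89 of them in the table and 87 tested) held 34 rises and 40 falls, with 13 not passing and a median log2 change of -0.09. Of these 85.1% passed, near the 80.1% of all tested genes. In TPM without mitochondrially encoded genes the split was 42 rises and 26 falls, at a median for all genes of 0.21. Among all 11513 genes tested on that scaling, 5451 rose and 3798 fell.

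Factors that fold and assemble the mTOR complexes stood lowest. Of 10, 8 fell, none rose and 2 did not pass as deposited, with a median of -0.93, where 42.8% of all tested genes fell and 37.4% rose. Across the 7 scalings between 7 and 8 fell and between 0 and 2 rose. The chaperone genes HSP90AB1 and HSP90AA1 went from 1021 ± 2.39 to 181 ± 25.7 FPKM and from 1144 ± 62.8 to 217 ± 26.7 (log2 changes -2.50 and -2.40, limma adjusted p = 2.94e-08 and 3.16e-08), and both have pseudogenes with which reads may be shared. These factors stabilise other kinases of the same family as well.

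Amino acid sensing genes had medians above that of all tested genes. The list of Rag GTPases and Ragulator, which recruit mTORC1 to the lysosome, also held SLC38A9, FLCN, FNIP1 and FNIP2. Its 13 genes had 8 rises and 3 falls (61.5% and 23.1%, against 37.4% and 42.8% of all tested genes), with a median of 0.40. FLCN and FNIP2 were among the rises (log2 changes 0.49 and 0.50), and SLC38A9 and FNIP1 did not pass. The counts became 9 rises and 1 fall in TPM without mitochondrially encoded genes. LAMTOR3 rose from 5.97 ± 0.698 to 14.8 ± 0.642 FPKM and RRAGB from 9.26 ± 0.945 to 18.6 ± 1.41, and LAMTOR1 fell from 69.8 ± 2.33 to 47.5 ± 1.94. RRAGD also fell, by 0.52 in log2 (limma adjusted p = 0.017), but passed in only 4 of 7 scalings. GATOR, KICSTOR and the sensors of leucine, arginine and S-adenosylmethionine had 9 rises and 6 falls among 17 tested (52.9% and 35.3%; median 0.61). Without mitochondrially encoded genes TPM gave 11 rises and 3 falls, and quantile normalization gave 8 and 5 with a median of 0.28. SESN1, a sestrin that inhibits mTORC1 through GATOR2, rose from 1.15 ± 0.388 to 25.1 ± 3.14 FPKM (log2 change 4.49, limma adjusted p = 9.94e-08). SESN3, with 5 to 12 reads in a Cont library, rose from 0.0307 ± 0.0167 to 2.44 ± 0.350 FPKM (log2 change 6.43, limma adjusted p = 2.24e-06), a size that depends on the offset in the deposited values. SEC13 and NPRL2 fell, by 0.83 and 0.73 in log2.

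The TSC complex, RHEB and the FKBP genes had 3 rises and 3 falls among 7 (42.9% each, against 37.4% and 42.8% of all tested genes). TPM without mitochondrially encoded genes gave 4 rises and 2 falls, where all 11513 tested genes gave 5451 and 3798. TSC2, which turns RHEB off, rose from 10.0 ± 0.955 to 16.0 ± 1.39 FPKM, and RHEB, the GTPase that activates mTORC1, fell from 92.5 ± 1.18 to 66.2 ± 3.84 (limma adjusted p = 0.000231 and 9.48e-05). FKBP5 rose by 0.76 in log2, and FKBP1A, the rapamycin-binding FKBP12, had a log2 change of -0.81.

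Substrates of the complexes went both ways. Among 18 tested mTORC1 substrates and effectors, 6 rose and 10 fell (33.3% and 55.6%, against 37.4% and 42.8% of all tested genes; median -0.33). Of these, EIF4EBP1, the translation repressor 4E-BP1, fell from 121 ± 1.04 to 27.4 ± 9.27 FPKM, and SREBF1, a lipogenic transcription factor, from 96.4 ± 3.17 to 20.4 ± 3.19. The autophagy kinase gene ULK2 rose from 16.5 ± 1.24 to 55.1 ± 5.74 FPKM and PDCD4, an inhibitor of translation initiation, from 3.95 ± 0.355 to 9.87 ± 0.454. Among 11 tested genes of the mTORC2 substrate list, which includes the SGK target NDRG1, 4 rose and 6 fell (36.4% and 54.5%; median -0.21). In TPM without mitochondrially encoded genes the counts were 7 rises and 6 falls for mTORC1 and 4 and 3 for mTORC2. That scaling gave 5451 rises and 3798 falls among all 11513 tested genes. The 2 list medians were then -0.05 and 0.08, below the 0.21 of all genes. As deposited they were also below the median of all genes, -0.07. The SGK kinases split, 1 rising and 2 falling: SGK3 rose from 20.3 ± 3.81 to 156 ± 12.04 FPKM (log2 change 2.95, limma adjusted p = 7.04e-08) and SGK2 fell from 61.9 ± 5.75 to 2.56 ± 0.585 (log2 change -4.61, limma adjusted p = 1.38e-08). SGK1, named after its values were seen as the remaining SGK gene, fell from 24.5 ± 1.40 to 14.03 ± 1.09 FPKM (log2 change -0.80, limma adjusted p = 2.01e-05). NDRG1 rose by 1.93 in log2 and PRKCE, a PKC isoform, had a log2 change of -0.96.

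Interactors and regulators of mTORC2 had 4 rises, 4 falls and 3 genes that did not pass among 11. The rises and the falls were 36.4% each, against 37.4% and 42.8% of all tested genes. ARHGEF3, also known as XPLN and reported as an endogenous inhibitor of mTORC2, rose from 5.14 ± 0.831 to 49.5 ± 4.40 FPKM (log2 change 3.28, limma adjusted p = 3.11e-08), beside the rise of RICTOR. The insulin receptor substrates IRS2 and IRS1 moved apart, at log2 changes of 1.12 and -1.70 (limma adjusted p = 1.08e-05 and 4.96e-07). NBN, a DNA repair gene, fell by 0.81 in log2.

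**Figure D5:**
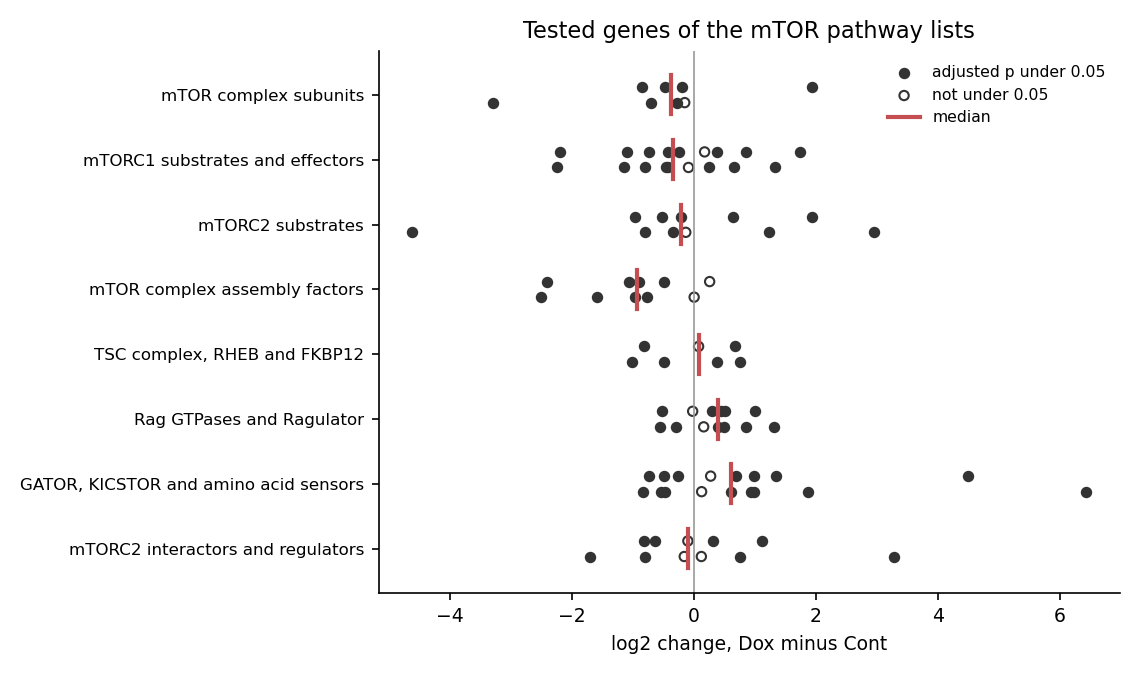
Log2 change, Dox minus Cont (x axis), of each tested gene in the subunit set and the 7 pathway lists (rows); filled points passed limma's test at an adjusted p under 0.05, open points did not, and red bars are medians. Assembly factors lie mostly to the left of 0 with a median of -0.93, and the subunit row spans from PRR5L at -3.30 to RICTOR at 1.94.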

How the data were processed

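The authors deposited 1 table of log2 FPKM values, 13117 genes by 6 libraries, with gene symbols; per the submitters' processing notes, reads were checked with FastQC 0.11.7 and the build was GRCh38. The aligner, counter, annotation and any filter on genes are not given in the sources used here. The labels give 1 column name to both the first and second Cont samples, so columns were matched by title; the groups are unaffected. The deposited values carry an offset proportional to the library total, 1.58 to 2.62 reads and 2.0 on average, and solving for it returned whole reads for 100% of genes (tolerance 0.01 reads), with each gene's length.

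The test was that of limma 3.58.1 (R 4.3.3) applied to the deposited log2 values with a mean-variance trend, two-sided, with Benjamini-Hochberg adjustment over the 11526 genes at 1 FPKM or more in at least 3 libraries; the threshold was an adjusted p under 0.05. Ratios were tested by exact permutation over libraries. Transcript lengths and coordinates are from GENCODE 29 and upstream sequences from RefSeq. In each pathway list the 2 largest rises and 2 largest falls past the threshold, with no overlap between groups, were named. Genes named outside that rule were FOXO1, cell type markers, overlapping neighbours, genes alike in pattern, and SGK1, which was named after its values were seen. SLC38A9, FLCN, FNIP1 and FNIP2 were also named outside it, to give the content of their list. Same-numbered Cont and Dox samples were not paired: their deviations correlated at 0.0137, -0.0005 and 0.0560. Alternatives were other offsets (adding 1 or 0.1 FPKM before the log), filters, scalings and variance models, the replicate number as a block and leaving out each library. Others, limma voom on recovered reads, a filter at 20 reads and scaling to the listed reads with or without mitochondrially encoded genes, were chosen after seeing the data. The members and lists were chosen with earlier results of these data known.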

Additional observations from a re-analysis of the deposited data

How the results depend on the processing

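RICTOR, PRR5L, PRR5 and MLST8 kept their direction and passed limma's test in all 21 alternatives. MTOR lost its call in 1 (TPM without mitochondrially encoded genes), AKT1S1 in 4 scalings, and MAPKAP1 lost its call with its direction kept in 12 and changed sign in 1. In TPM without mitochondrially encoded genes, 3 subunits and 26 pathway genes were lower in place of 6 and 40, MAPKAP1 turned to 0.078 (limma adjusted p = 0.348) and RPTOR to 0.13 (0.147). RPTOR also turned to 0.037 with quantile normalization (limma adjusted p = 0.666) and to 0.017 when scaled to the listed reads without mitochondrially encoded genes (0.835). Scalings without mitochondrially encoded genes multiply each library by a single factor, so each moved the log2 changes of all genes by the same amount. From the deposited values to TPM without mitochondrially encoded genes, RICTOR went from 1.94 to 2.22 and MTOR from -0.48 to -0.20. Mitochondrially encoded genes took 3.00% to 4.67% of the summed FPKM in Cont and 13.2% to 14.7% in Dox. Leaving them out of TPM moved MTOR from -0.36 to -0.20, a part of that shift. Why this share and the rest of the factors differed between Cont and Dox was not tested, nor was the cause of the shift with quantile normalization. The log2 ratio of RICTOR to RPTOR rose by 1.87 on log2(FPKM + 1) and by 1.88 with quantile normalization, in place of 2.09. Leaving out each library in turn, that ratio ran from 2.06 to 2.11, the MAPKAP1 to RPTOR ratio from -0.12 to 0.044 (positive without Dox replicate 2) and the number of lower subunits from 5 to 6. With the replicate number as a block, MAPKAP1 was no longer called (limma adjusted p = 0.052), no other subunit changed its call, and 4306 rises and 4917 falls were called over all genes. Limma voom on the recovered reads called 4338 and 4970. Depth limits DEPTOR most, with at most 59 reads in a library.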

Other observations

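Low read numbers in the deposited table were even more often than odd. Among the 307 genes in which several libraries shared the lowest value, 53.8% to 71.4% of the recovered read numbers per library were even, against 50.2% to 52.8% over all genes. No source used here says whether both mates of a pair were counted.

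The transcript length the authors divided by equalled a GENCODE 29 transcript of the same gene for 7344 of 12940 matched symbols, and the longest transcript for only 1725 of 12185 genes with several. For 2859 of 12912 genes, 22.1%, it was under 50% of the longest coding transcript, as it was for PRR5L, MLST8, RPTOR, PRR5 and MTOR. The recovered reads of the listed genes came to 1.01 to 1.04 times the library total in Cont and 0.973 to 0.977 times in Dox.

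Summed levels of markers of other cell states differed between the groups beside the subunits. Of 5 epithelial markers 3 were listed, and 2 reached 1 FPKM in at least 3 libraries. The 3 summed to 122 to 127 FPKM in Cont and 32.8 to 34.5 in Dox. Of 6 mesenchymal markers 4 were listed, and all 4 reached that level. They summed to 1109 to 1152 FPKM in Cont and 441 to 546 in Dox. These sums, like that of the hepatocyte genes, rest on the uneven lengths and can be carried by a single gene. They do not give the direction of each marker. The part of the markers in the changes of RICTOR and PRR5L was not tested.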
